A study of Mus musculus with 2 samples.

Results

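The 32 mitosis genes described here encode the proteins that condense, hold, pull apart and divide the chromosomes. The rule names them by gene symbol and uses none of their values, though it was set with earlier results of these data known, and all 32 were found among the 31053 features of the count matrices. They were followed across the cells of tumours raised in the right flank of C57BL/6 mice from MC38, a colon carcinoma line of the same strain. The SHP099 group received SHP099 hydrochloride, an allosteric inhibitor of the phosphatase SHP2, at 5 mg/kg by gavage daily for 14 days. The control group received PBS and carries the label untreated. The 6 mice of each group were dosed from day 5 after injection, at a mean tumour size of 100 mm3. Each group gave 1 library, and the number of mice behind it is not stated in the labels. With 1 library per group there is no replicate check and no test, and every interval below is a 95% interval that covers counting error only.

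Cells that do not divide keep most of these genes nearly silent. The genes switch on together in the G2 phase and in mitosis, and their transcripts and proteins are cleared as the cell divides, so a cell that holds many of them is usually close to division. Their promoters are known for a pair of elements, the CCAAT box bound by NF-Y and the cell cycle homology region bound by the MuvB complex with MYBL2 and FOXM1. Mki67, the gene of the Ki-67 antigen, is the usual mark of growing cells in tumours. In a tumour these genes can come from the carcinoma cells, from T cells that expand after antigen contact, and from macrophages that divide in place.

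Single-cell RNA sequencing with the 10x 3′ method gave 112901642 UMIs in 8263 barcodes of the SHP099 library and 126218180 UMIs in 8245 barcodes of the control library. A UMI counts 1 captured RNA molecule. After filters and removal of called doublets, 7702 SHP099 cells and 7688 control cells remained, with medians of 10751.5 and 9162 UMIs per cell. The libraries shared 100 barcodes, 1.21% of either. Cell classes were named from marker genes after clustering without cell cycle genes, so each name below means cells that look like that type. Xist-negative cells numbered 4294 in SHP099 and 4185 in control, mononuclear phagocytes 2598 and 2514, and T cells 399 and 517. These 3 classes were compared between the libraries. NK cells, dendritic cells, fibroblasts and endothelial cells had under 200 cells in each library and are only described.

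The expected tumour cells were checked against 8 markers. Hmga2, Igf2bp2, Igf2bp3 and Tnfrsf12a were present, and the summed list stood at 323 CPM in SHP099 and 430 CPM in control Xist-negative cells. CPM is the UMIs of a gene scaled to 1000000 UMIs of the class in that library. The epithelial genes Krt8, Krt18, Epcam and Cdh1 each lay under 1 CPM in these cells. Because only 4 of 8 markers were there, the class is named for its lack of Xist, the RNA of the inactive X chromosome, which stood at 2.97 CPM in SHP099 and 2.71 CPM in control. In mononuclear phagocytes Xist was at 1195 and 1046 CPM.

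The mitosis genes stood higher in the phagocytes and T cells of the SHP099 library than in those of control, and lower in its Xist-negative cells. Summed over the 32 genes, phagocytes held 1496 CPM in SHP099 and 765 CPM in control, a log2 ratio of 0.97 (0.93 to 1.00). T cells held 3351 CPM in SHP099 and 2323 CPM in control, a log2 ratio of 0.53 (0.46 to 0.60). Xist-negative cells held 2013 CPM in SHP099 and 2338 CPM in control, a log2 ratio of -0.22 (-0.22 to -0.21). Phagocytes stood lowest of the 3 classes in both libraries. The Xist-negative cells supplied most of the mitosis transcripts, 88.3% of all those UMIs in SHP099 and 94.0% in control. The share that came from phagocytes was 8.74% in SHP099 and 3.43% in control, while their share of the UMIs of all genes was 11.4% and 9.69%.

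**Figure D1:**
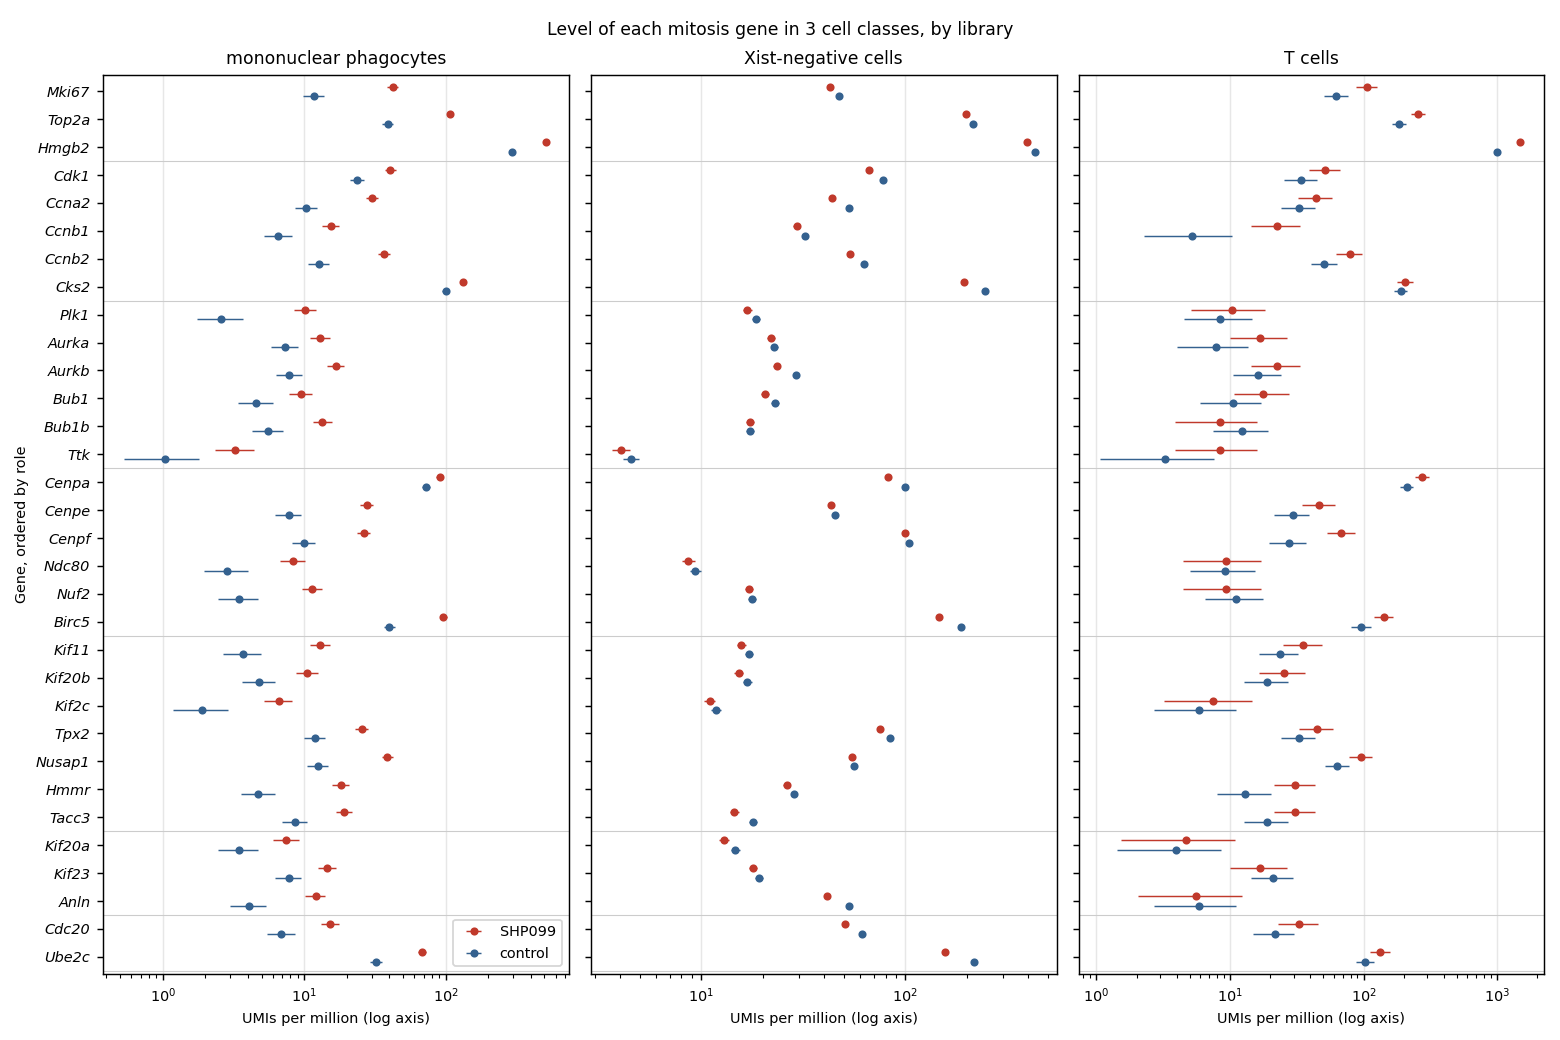
Level of each of the 32 genes, in CPM on a log axis, in mononuclear phagocytes, Xist-negative cells and T cells of the SHP099 library (red, above) and the control library (blue, below), with exact 95% Poisson intervals. In phagocytes the SHP099 points lie to the right of control for all 32 genes, and in Xist-negative cells to the left for all but Bub1b.

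The order of the classes was read gene by gene. In the control library 24 of 32 genes were highest in Xist-negative cells, 19 of them with intervals apart from both other classes, and 31 were lowest in phagocytes, 25 of them apart. In the SHP099 library 17 genes were highest in Xist-negative cells, 6 of them apart, and 15 were highest in T cells, 8 of them apart. Mki67, Hmgb2 and Cenpa were highest in T cells in both libraries with intervals apart. In SHP099, Hmgb2, Cenpa and Tacc3 were lowest in the Xist-negative cells, with intervals apart from phagocytes and T cells.

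Phagocytes showed the largest difference between the libraries among these 3 classes. Of the 32 genes, 27 reached 10 CPM in either library. At least 1.5-fold higher in SHP099 were 25 of these 27, where 4.28% of all 6795 genes at that level in phagocytes were, and none was 1.5-fold lower, where 1.87% of all were. The median log2 ratio over the 27 was 1.21, and over all genes at that level 0.05. All 27 were higher by some amount, where 58.9% of all genes were and 41.1% were lower. The exact interval lay above 0 for each of the 27, where it did for 26.1% of all genes and lay below 0 for 15.9%. The 5 genes under 10 CPM in both libraries were Bub1, Ttk, Ndc80, Kif2c and Kif20a, and these were also higher in SHP099, with log2 ratios between 0.98 and 1.57.

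The 3 genes of chromosome structure were all at least 1.5-fold higher in SHP099. Mki67, whose product coats mitotic chromosomes, was at 42.1 CPM in SHP099 phagocytes and 11.7 CPM in control phagocytes, a log2 ratio of 1.80 (1.57 to 2.13). Top2a, the topoisomerase that untangles replicated DNA, was at 107 CPM in SHP099 and 39.0 CPM in control, a log2 ratio of 1.45. Hmgb2, a DNA-bending protein that cells outside mitosis also express, was at 514 CPM in SHP099 and 292 CPM in control, a log2 ratio of 0.81. Of the 3, Hmgb2 had the smallest ratio. It made up 34.4% of the mitosis UMIs of SHP099 phagocytes and 38.2% of those of control phagocytes.

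The kinase that drives entry into mitosis, Cdk1, differed less than most of its cyclins. Cdk1 was at 40.7 CPM in SHP099 phagocytes and 23.7 CPM in control phagocytes, a log2 ratio of 0.77. Ccna2, the cyclin of S and G2 phase, was at 30.2 and 10.3 CPM in SHP099 and control, a log2 ratio of 1.501. The mitotic cyclin Ccnb1 was at 15.4 CPM in SHP099 and 6.55 CPM in control, a log2 ratio of 1.17. The other mitotic cyclin, Ccnb2, lay close to Ccna2 in ratio. It was at 36.6 CPM in SHP099 and 12.7 CPM in control. Cks2, a small partner of the kinase, was at 134 CPM in SHP099 and 100.3 CPM in control, a log2 ratio of 0.41 that stayed under 1.5-fold.

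Of the mitotic kinases, Plk1, which acts at centrosomes, kinetochores and in cytokinesis, was at 10.2 CPM in SHP099 phagocytes and 2.59 CPM in control phagocytes, a log2 ratio of 1.79 (1.39 to 2.60). Aurka, the kinase of the spindle poles, was at 12.9 CPM in SHP099 and 7.33 CPM in control, and Aurkb, the kinase of the chromosomal passenger complex, at 16.8 and 7.84 CPM. Bub1b, which delays the separation of chromosomes until all are attached, was at 13.4 CPM in SHP099 and 5.52 CPM in control. All 4 of these were at least 1.5-fold higher in SHP099. Bub1 and Ttk, kinases of the same checkpoint, had few counts, with 117 UMIs of Bub1 in SHP099 and 53 in control, and 40 UMIs of Ttk in SHP099 and 12 in control.

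Centromere and kinetochore genes held both the gene with the smallest ratio and some of the largest. Cenpe, the kinetochore motor that moves chromosomes to the spindle equator, was at 27.7 CPM in SHP099 phagocytes and 7.76 CPM in control phagocytes, a log2 ratio of 1.77. Nuf2, a part of the complex that grips microtubules, was at 11.4 CPM in SHP099 and 3.45 CPM in control, a log2 ratio of 1.59. Cenpf, a large kinetochore protein, was at 26.3 and 9.91 CPM in SHP099 and control. Birc5 encodes survivin, a further part of the passenger complex. Birc5 was at 96.3 CPM in SHP099 and 40.1 CPM in control, a log2 ratio of 1.25. Cenpa, the histone variant that marks the centromere, was at 91.0 CPM in SHP099 and 72.9 CPM in control, a log2 ratio of 0.32 (0.19 to 0.45) that also stayed under 1.5-fold.

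All 6 measured spindle genes were at least 1.5-fold higher in SHP099, with log2 ratios between 1.05 and 1.83. Hmmr, a microtubule-binding protein of the spindle poles, was at 18.1 CPM in SHP099 phagocytes and 4.74 CPM in control phagocytes, and its log2 ratio of 1.83 (1.51 to 2.39) was the highest of the 27 genes. Kif11, the motor that pushes the spindle poles apart, was at 13.02 CPM in SHP099 and 3.71 CPM in control, a log2 ratio of 1.68. Nusap1, which bundles spindle microtubules, was at 38.8 and 12.5 CPM in SHP099 and control, a log2 ratio of 1.60. Tpx2, Tacc3 and Kif20b, which also act on spindle microtubules, had log2 ratios between 1.05 and 1.11. In cytokinesis, Anln, a scaffold of the contractile ring, was at 12.04 CPM in SHP099 and 4.05 CPM in control, and Kif23, a motor of the midbody, at 14.5 and 7.76 CPM. The genes of exit from mitosis close the list. Cdc20, which activates the anaphase-promoting complex, was at 15.2 CPM in SHP099 and 6.90 CPM in control, a log2 ratio of 1.09. Ube2c, the ubiquitin-conjugating enzyme of that complex, was at 67.9 CPM in SHP099 and 32.2 CPM in control, a log2 ratio of 1.06.

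**Figure D2:**
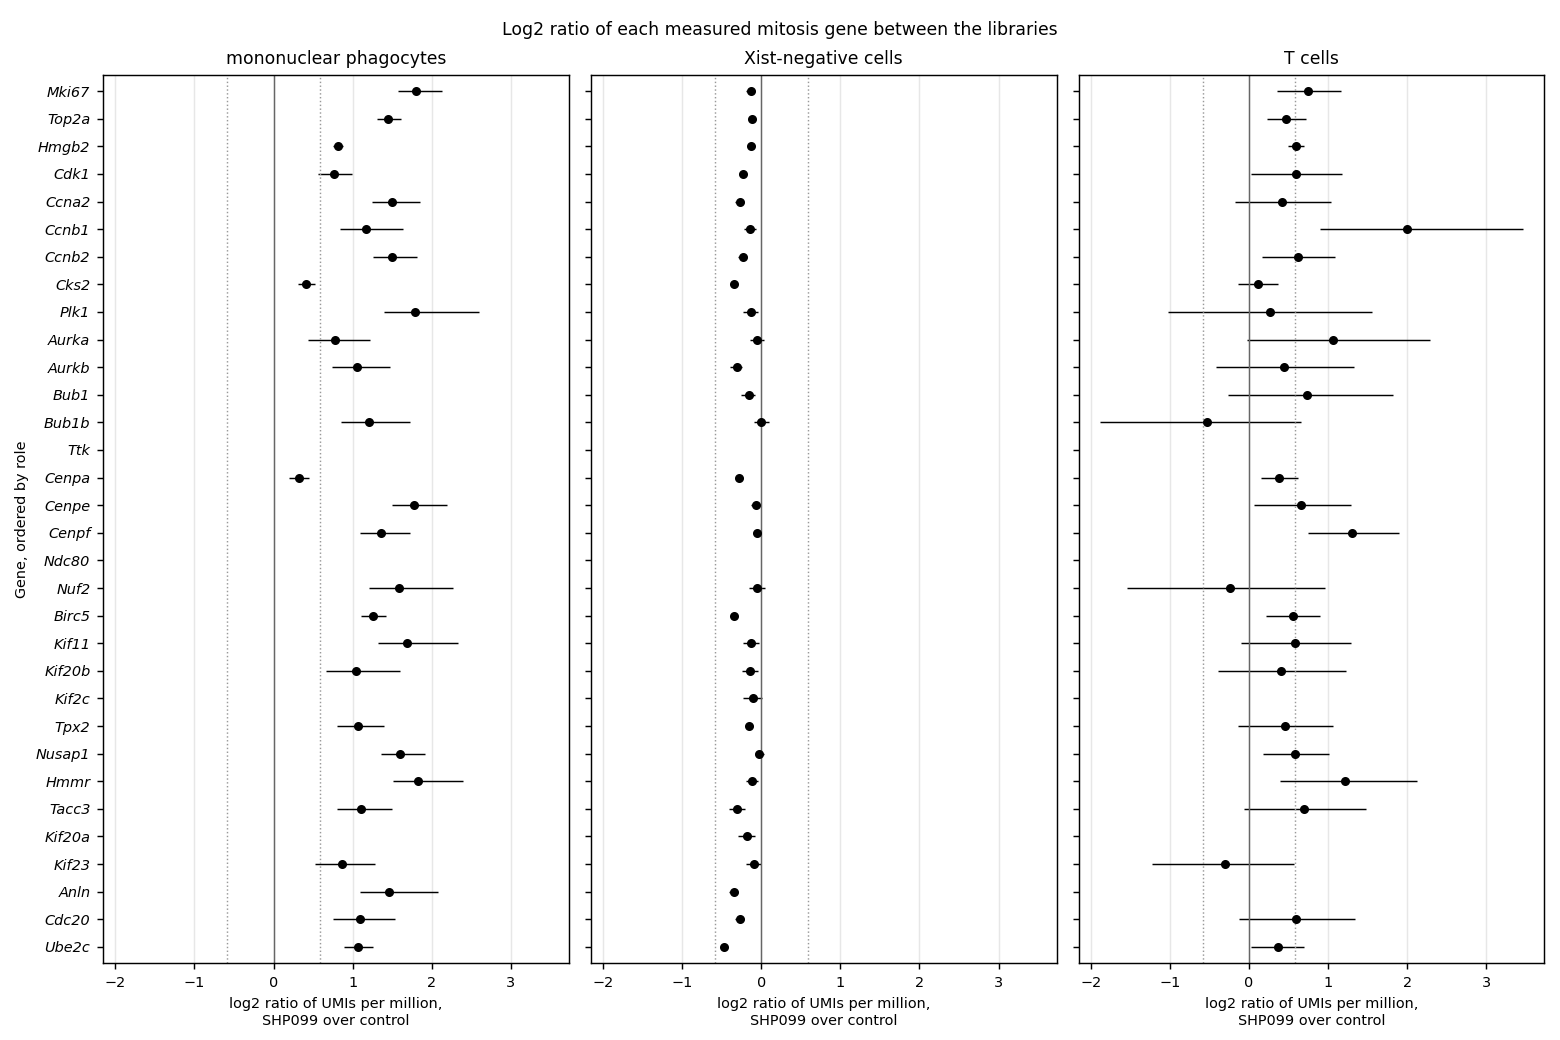
Log2 ratio of SHP099 over control for each gene in mononuclear phagocytes, Xist-negative cells and T cells, with exact 95% counting intervals and a line at 0. The phagocyte ratios lie between 0.32 for Cenpa and 1.83 for Hmmr among the 27 genes at 10 CPM or more, and the Xist-negative ratios between -0.47 for Ube2c and 0.00 for Bub1b.

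Promoters are shown for Hmmr and Cenpa, the genes with the highest and the lowest ratio in phagocytes, and for Ccnb1, Cdc20 and Plk1, which stand for cyclins, exit and kinases. Each is the 250 bases before the RefSeq start on GRCm38.p6, read 5′ to 3′ on the strand of the gene, in lower case. Capitals mark the CCAAT box, which reads ATTGG on the other strand. They also mark the cell cycle homology region, searched as TTTGAA, which reads TTCAAA on the other strand, and as the palindrome TTCGAA. The 32 genes lie on 14 chromosomes, and 28 of them had an entry in the RefSeq promoter table.
Hmmr: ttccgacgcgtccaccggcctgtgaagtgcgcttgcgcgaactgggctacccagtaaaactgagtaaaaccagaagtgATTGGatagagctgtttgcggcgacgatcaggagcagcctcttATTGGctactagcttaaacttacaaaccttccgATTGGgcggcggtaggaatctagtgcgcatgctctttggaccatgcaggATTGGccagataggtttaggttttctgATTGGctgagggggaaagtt
Cenpa: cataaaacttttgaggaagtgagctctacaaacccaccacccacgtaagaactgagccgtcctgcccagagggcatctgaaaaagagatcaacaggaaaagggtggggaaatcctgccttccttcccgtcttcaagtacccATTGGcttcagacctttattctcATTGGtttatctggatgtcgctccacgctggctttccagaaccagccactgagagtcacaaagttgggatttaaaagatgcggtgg
Ccnb1: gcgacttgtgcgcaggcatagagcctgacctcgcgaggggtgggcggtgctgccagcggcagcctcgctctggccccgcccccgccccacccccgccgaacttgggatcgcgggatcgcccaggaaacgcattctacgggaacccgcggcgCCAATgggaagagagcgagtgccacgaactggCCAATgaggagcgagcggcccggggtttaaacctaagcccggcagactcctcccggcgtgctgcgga
Cdc20: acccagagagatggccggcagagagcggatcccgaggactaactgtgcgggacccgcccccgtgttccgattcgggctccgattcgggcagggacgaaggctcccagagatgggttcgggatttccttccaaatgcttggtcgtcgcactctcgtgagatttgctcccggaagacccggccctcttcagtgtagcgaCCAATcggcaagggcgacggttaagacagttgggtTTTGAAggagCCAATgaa
Plk1: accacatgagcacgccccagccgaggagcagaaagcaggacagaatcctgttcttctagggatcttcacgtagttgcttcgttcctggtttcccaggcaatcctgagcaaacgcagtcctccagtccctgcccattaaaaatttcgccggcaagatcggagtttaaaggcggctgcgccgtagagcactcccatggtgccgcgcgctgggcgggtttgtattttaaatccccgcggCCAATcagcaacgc
The windows are chr11:40733438-40733687 on the minus strand for Hmmr, chr5:30666636-30666885 on the plus strand for Cenpa, chr13:100786487-100786736 on the minus strand for Ccnb1, chr4:118437344-118437593 on the minus strand for Cdc20 and chr7:122159185-122159434 on the plus strand for Plk1. Hmmr held 5 copies of ATTGG, Cenpa 2 of ATTGG and Ccnb1 2 of CCAAT. Cdc20 held 2 copies of CCAAT with TTTGAA between them, and Plk1 held 1 of CCAAT. Over the 28 promoters, CCAAT was found on either strand in 20, or 71.4%, where 33.8% of all 32851 promoter windows held it. At least 2 copies were found in 15, or 53.6%, against 10.1% of all windows. Either form of the cell cycle homology region was found in 10 of 28, or 35.7%, against 17.1% of all windows. The searched motifs do not overlap each other in the printed windows. A match is a string of letters, not a measured binding site, and Hmmr and Cenpa, at opposite ends of the phagocyte ratios, both hold CCAAT boxes.

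The extra transcripts were read cell by cell after each cell was drawn down to 2000 UMIs, with shallower cells left out. A cell was called mitosis-high when it held at least 3 UMIs over the 30 genes other than Hmgb2 and Cks2, which cells outside mitosis also express. This is a range and not a cell type, and 189 SHP099 and 144 control phagocytes held 2 or 3 such UMIs, next to the limit. Among phagocytes 311 of 2388 cells, 13.02%, were mitosis-high in SHP099, against 107 of 2301 cells, 4.65%, in control. The ratio of these shares was 2.80 (2.24 to 3.52). At full depth the shares were 19.7% in SHP099 and 11.0% in control, at median depths of 4311 and 4425.5 UMIs per cell.

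Free RNA in droplets can give such UMIs to cells that do not divide, and its part was not tested. Classical monocytes, a cluster formed when phagocytes were clustered alone, are given as a low reference. That clustering also formed a cluster led by Hist1h2ap and Pclaf, where dividing cells could gather. The share of the classical monocytes therefore does not measure free RNA. Of the classical monocytes 0 of 108 cells were mitosis-high in SHP099, which allows a share of up to 2.78%, against 1 of 87 cells, 1.15%, in control. Their median depths were 2736 and 2740.5 UMIs. The exact interval of the classical monocytes was 0 to 3.36% in SHP099 and 0.0291 to 6.24% in control, from few cells. In SHP099 the phagocyte share lay above that interval, and in control inside it.

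**Figure D3:**
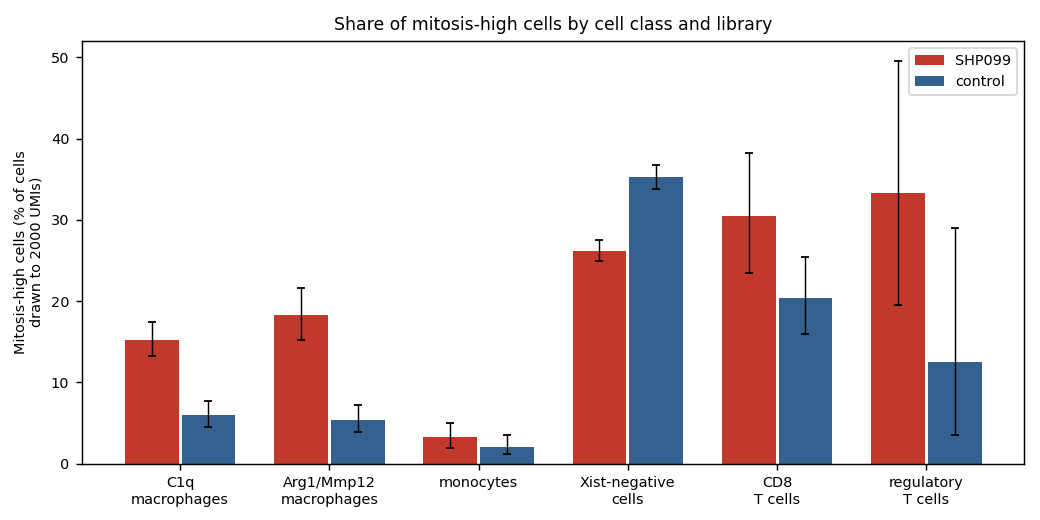
Share of mitosis-high cells, in percent of cells drawn down to 2000 UMIs, in SHP099 (red, left) and control (blue, right), with exact binomial intervals. Shown are C1q macrophages, Arg1/Mmp12 macrophages, monocytes, Xist-negative cells, CD8 T cells and regulatory T cells. C1q macrophages stand at 15.2% in SHP099 and 5.95% in control, and Xist-negative cells at 26.2% and 35.2%.

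The mitosis-high phagocytes also held slightly more of these UMIs on average in SHP099, though they were chosen by that same count. SHP099 phagocytes with 10 or more UMIs of the 30 genes among 2000 made up 3.22%, and control phagocytes 0.565%. Cells with none made up 62.4% in SHP099 and 68.6% in control. Mitosis-high cells averaged 7.35 such UMIs in SHP099 and 6.01 in control, and they held 76.2% of the mitosis UMIs of drawn-down SHP099 phagocytes, against 46.8% in control. Each gene was also compared within mitosis-high cells that were chosen without it. There the median log2 ratio over the 32 genes was 0.39, and 14 of 32 intervals lay above 0, where 8.02% of all genes at 10 CPM or more in these cells did, and none below, where 6.02% did. Anln was at 46.5 CPM in SHP099 and 19.7 CPM in control in these cells, a log2 ratio of 1.24, and Mki67 at 188 and 106 CPM, a log2 ratio of 0.82. For Cdk1 and Cenpa the ratio in these cells was near 0, at -0.07 and -0.11.

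**Figure D4:**
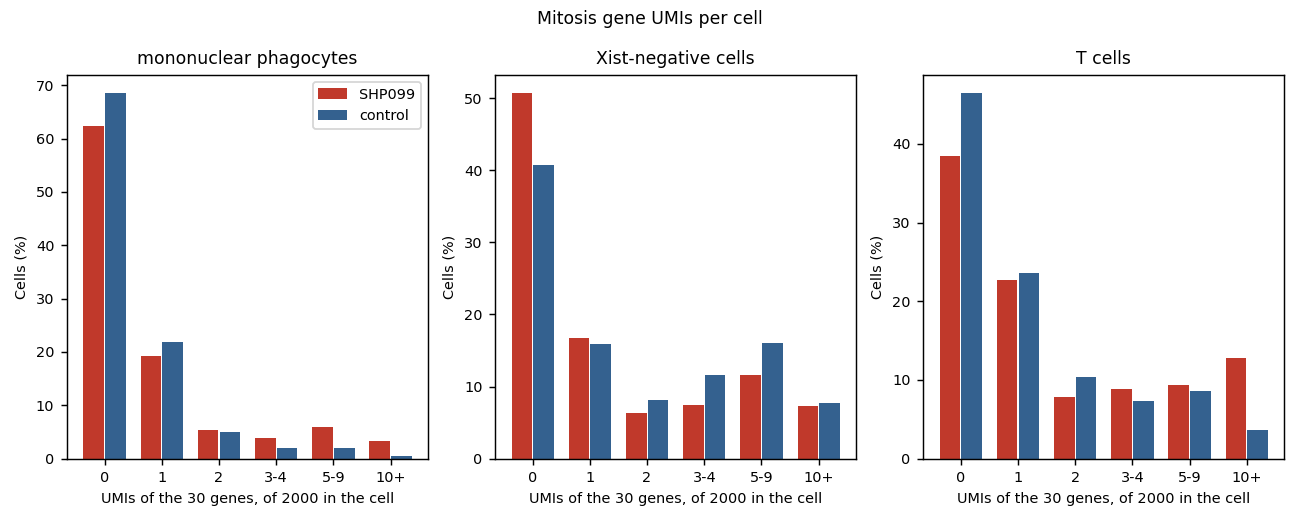
Share of cells, in percent, by the number of UMIs of the 30 genes among 2000 UMIs per cell, for phagocytes, Xist-negative cells and T cells of SHP099 (red, left) and control (blue, right). Phagocytes with 10 or more such UMIs make up 3.22% in SHP099 and 0.565% in control.

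How tightly a gene followed the rest differed within the list. With both libraries together and each gene read in cells chosen without it, the median ratio of the level in mitosis-high to that in other phagocytes was 17.4 over the 32 genes. Cks2 had the lowest ratio, 3.93, with 331 CPM in mitosis-high and 84.3 CPM in other phagocytes. Plk1 had the highest, 45.3, with 44.7 CPM in mitosis-high and 0.988 CPM in other phagocytes. Cenpa stood near the low end, at 5.43, with 54.0 CPM in the phagocytes that were not mitosis-high. In Xist-negative cells the same ratio had a median of 9.54 and ran up to 20.4 for Nusap1. Across 4689 drawn-down phagocytes of both libraries, which share library and cell type, the correlation of a gene with the sum of the others was highest for Top2a, at 0.50, and Birc5, at 0.49, and lowest for Kif2c, at 0.08.

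Mitosis-high phagocytes kept the marks of phagocytes. In both libraries together the macrophage and monocyte markers summed to 30897 CPM in mitosis-high and 36271 CPM in other phagocytes, and Xist was at 1615 and 1041 CPM. The tumour list stood at 52.0 CPM in mitosis-high and 82.2 CPM in other phagocytes, and 1.20% and 2.13% of these cells held a UMI of Hmga2, Igf2bp2 or Igf2bp3. With all such cells left out, an alternative added after the data were seen, the summed log2 ratio in phagocytes was 0.95. Mitosis-high phagocytes were deeper, with medians of 6910 UMIs and 2170 genes against 4456 UMIs and 1536 genes in the others. SHP099 phagocytes also had 3.08% mitochondrial UMIs against 2.17% in control, and 21.4 CPM of haemoglobin transcripts against 1.98 CPM. The part of these in the mitosis ratios was not tested. Where each cell was assigned by its own markers instead of its cluster, the summed log2 ratio in phagocytes was 0.59.

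The libraries held the phagocytes in different clusters. C1q macrophages numbered 1278 cells in SHP099 and 940 in control, Arg1/Mmp12 macrophages 617 and 751, and monocytes 703 and 823. With these 3 clusters weighted alike the summed log2 ratio was 0.88. When the phagocytes were clustered again alone, unnamed clusters led by Pf4 and Fabp5 and by Cadm1 and Vcam1 held 237 and 155 cells in SHP099 and 552 and 363 in control, and a cluster led by Gpr34 and H2-Ab1 held 294 and 110. A further one, led by Hist1h2ap and Pclaf with Nusap1 and Birc5 among its 10 leading genes, held 383 cells in SHP099 and 113 in control. These sizes are a description, since leading genes differ between the libraries. A cluster of the first round with macrophage markers but led by haemoglobin genes, 166 cells in SHP099 and 148 in control with a median of 1264.5 UMIs, was left unnamed and is not among the phagocytes. It held 1208 CPM of the 32 genes in SHP099 and 1581 CPM in control, and 12 of 60 and 9 of 55 of its cells were mitosis-high. With it added, after the data were seen, the summed log2 ratio of the phagocytes was 0.87.

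The phagocyte subsets differed in level and in ratio. The Arg1/Mmp12 macrophages are a whole cluster with Mmp12 and Arg1 among its 10 leading genes, and not all its cells need be high in them. When phagocytes were clustered alone, only a cluster of 93 SHP099 and 162 control cells met that marker list. The Arg1/Mmp12 macrophages held 1707 CPM of the 32 genes in SHP099 and 725 CPM in control, a log2 ratio of 1.23 (1.17 to 1.30). C1q macrophages held 1644 CPM in SHP099 and 864 CPM in control, a log2 ratio of 0.93 (0.88 to 0.98). Monocytes held 764 CPM in SHP099 and 645 CPM in control, a log2 ratio of 0.24 (0.15 to 0.34). The intervals of the 3 ratios do not overlap, but they count each UMI as independent, and few cells carried many of the UMIs. In Arg1/Mmp12 macrophages 43 cells in SHP099 and 46 in control held 50% of the UMIs of the 32 genes. Counted by cells, the intervals of the ratios of mitosis-high shares overlap between the 3 subsets. A difference in ratio between the subsets was not tested.

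The medians over genes followed the same order, with 0.56 in monocytes, but single genes did not all do so. Cenpe, for example, had its highest ratio among these subsets in monocytes, from few UMIs. In Arg1/Mmp12 macrophages all 29 genes at 10 CPM or more were at least 1.5-fold higher in SHP099, where 7.25% of all genes were higher and 2.44% lower, and the median log2 ratio was 1.59. Anln was at 16.6 CPM in SHP099 and 2.45 CPM in control there, and Cenpf at 39.9 and 9.32 CPM. In C1q macrophages 26 of 28 were at least 1.5-fold higher, where 6.56% of all genes were, and none was lower, where 3.21% were. The median was 1.10. Hmmr had the highest ratio in C1q macrophages, at 20.9 CPM in SHP099 and 5.14 CPM in control, and Cenpa, at 87.9 and 82.4 CPM, was close to level. In monocytes 10 genes reached 10 CPM and 5 of them were at least 1.5-fold higher, where 5.09% of all genes were, and none was lower, where 4.21% were. Cenpe was at 13.8 CPM in SHP099 monocytes and 2.64 CPM in control monocytes, from 32 and 7 UMIs, while Cks2 was at 122 and 133 CPM.

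The ratios of the shares of cells followed the order of the summed ratios, though their intervals overlap. Mitosis-high cells made up 18.2% of Arg1/Mmp12 macrophages in SHP099 and 5.36% in control, a ratio of 3.40 (2.34 to 5.03). They made up 15.2% of C1q macrophages in SHP099 and 5.95% in control, a ratio of 2.56 (1.88 to 3.53). Among monocytes they were 19 of 589 cells, 3.23%, in SHP099 and 14 of 667 cells, 2.10%, in control, a ratio of 1.54 whose interval of 0.73 to 3.31 spans 1. In SHP099 the monocyte share lay above the 2.78% allowed for the classical monocytes, though inside their exact interval of 0 to 3.36%. In control it lay inside their interval of 0.0291 to 6.24%. At full depth the shares were 27.2% in SHP099 and 12.1% in control for Arg1/Mmp12 macrophages, 23.6% and 16.2% for C1q macrophages, and 5.97% and 4.13% for monocytes.

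T cells had the highest summed level of any compared class in SHP099, and Hmgb2 made up much of it, 44.5% of these UMIs in SHP099 and 42.6% in control. Of the 27 genes at 10 CPM or more, 14 were at least 1.5-fold higher in SHP099, where 11.4% of all 6940 genes were, and none was 1.5-fold lower, where 6.95% were. The median log2 ratio was 0.59, against 0.07 over all genes. Counts were low, and 13 of 27 intervals lay above 0, where 9.18% of all genes did, and none below, where 4.64% did.

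Ccnb1 had the highest ratio in T cells, at 22.4 CPM in SHP099 and 5.23 CPM in control, from 24 and 8 UMIs, a log2 ratio of 2.00 (0.90 to 3.47). Cenpf was at 68.3 CPM in SHP099 and 27.4 CPM in control, a log2 ratio of 1.30 (0.75 to 1.90). Hmmr was at 30.9 and 13.1 CPM in SHP099 and control, and its interval of 0.40 to 2.12 also lay above 0. These 3 were thus higher in SHP099 in T cells and phagocytes alike. Mki67 was at 106 CPM in SHP099 T cells and 62.7 CPM in control T cells, a log2 ratio of 0.75 (0.35 to 1.16), and Hmgb2 at 1493 and 989 CPM, a log2 ratio of 0.59 (0.49 to 0.70). Bub1b, Nuf2 and Kif23 had lower values in SHP099 T cells, with log2 ratios of -0.53, -0.24 and -0.30 and intervals that span 0.

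Mitosis-high cells were 63 of 203 T cells, 31.0%, in SHP099 and 64 of 327 T cells, 19.6%, in control, a ratio of 1.59 (1.10 to 2.28). The drawing down left out 196 SHP099 and 190 control T cells as too shallow, and at full depth the shares were 22.1% in SHP099 and 20.3% in control, at median depths of 2037 and 2385 UMIs. T cells with 10 or more UMIs of the 30 genes made up 12.8% in SHP099 and 3.67% in control. Of the T cells, CD8 T cells held 3547 CPM of the 32 genes in SHP099 and 2453 CPM in control, a log2 ratio of 0.53 (0.46 to 0.61). Regulatory T cells, 117 in SHP099 and 93 in control, held 2758 and 1450 CPM. Few T cells carried much of the sum, and 23 cells in SHP099 and 30 in control held 50% of the UMIs of the 32 genes. With called doublets kept the summed log2 ratio of T cells was 0.29, and it was 0.32 where each cell took its class from its own markers. With genes correlated with the 32 left out of the clustering, the T cell class held only 162 SHP099 and 299 control cells, and the log2 ratio was 0.51.

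In Xist-negative cells the genes were lower in SHP099 by small amounts. Of 30 genes at 10 CPM or more none was 1.5-fold higher, where 1.12% of all 7034 genes were, or 1.5-fold lower, where 0.227% were. The median log2 ratio was -0.14, against 0.02 over all genes. By any amount, 29 of the 30 were lower, where 44.4% of all genes were, and 1 was higher, where 55.6% were. The many UMIs of this class narrow the counting intervals without adding cells or libraries. Of the 30 intervals 25 lay below 0, where 30.2% of all genes did, and none above, where 38.6% did.

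As a group the genes of exit from mitosis had the lowest summed log2 ratio, -0.43. Ube2c was at 157 CPM in SHP099 Xist-negative cells and 218 CPM in control, a log2 ratio of -0.47 (-0.51 to -0.44). Cdc20 was at 50.8 CPM in SHP099 and 61.4 CPM in control, a log2 ratio of -0.27. Birc5 was at 146 CPM in SHP099 and 186 CPM in control, and its log2 ratio of -0.35 equalled that of the ring protein Anln. At the other end lay Bub1b, Nusap1, Cenpf, Nuf2 and Aurka, with log2 ratios between -0.05 and 0.00. Mki67 was at 42.9 CPM in SHP099 and 47.2 CPM in control, a log2 ratio of -0.14, and Top2a at 198 and 215 CPM, a log2 ratio of -0.12.

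Fewer Xist-negative cells were mitosis-high in SHP099. They were 1117 of 4264 cells, 26.2%, in SHP099 and 1447 of 4107 cells, 35.2%, in control, a ratio of 0.744 (0.687 to 0.804). At full depth the shares were 59.5% in SHP099 and 71.6% in control, at median depths of 20154.5 and 24305 UMIs per cell. Xist-negative cells with no UMI of the 30 genes among 2000 made up 50.8% in SHP099 and 40.7% in control, while those with 10 or more made up 7.25% and 7.65%. Inside the mitosis-high cells, each gene read in cells chosen without it, the direction was the other one. The median log2 ratio over the 32 genes was 0.23 there, with 24 intervals above 0 and 1 below, where 33.3% of all genes lay above and 14.6% below.

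The Xist-negative clusters differed in level and in the direction of the ratio. In clusters 1 and 9, which held the highest levels, the genes were slightly higher in SHP099. Cluster 1, led by Wincr1, Fam159b and Hmga1, held 3650 CPM in SHP099 and 3372 CPM in control, and cluster 9, led by Rorb, Hmga2 and Il1rl1, held 3322 and 3143 CPM. In cluster 1 intervals lay above 0 for 16 and below for 1 of 31 genes, where 25.3% of all genes lay above and 10.5% below. In cluster 9 they lay above for 15 and below for 3 of 31, where 25.4% of all lay above and 11.5% below. Their shares of mitosis-high cells were 60.8% in SHP099 and 60.2% in control for cluster 1, and 53.2% and 55.0% for cluster 9, with both intervals of the ratio across 1. Cluster 1 made up 11.2% of the Xist-negative cells of SHP099 and 18.8% of those of control.

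At the low end, cluster 11, led by Ogn, Dcn and Apod, held 514 CPM in SHP099 and 420 CPM in control and made up 13.8% and 6.31% of the Xist-negative cells. It alone of these clusters met a marker list, that of fibroblasts with 3 markers, and was placed in the class for its Xist of 3.24 CPM. Cluster 0, led by Cst6 and Nppb, held 1981 CPM in SHP099 and 2319 CPM in control, with 17 of 30 intervals below 0 and none above, where 17.7% of all genes lay below and 18.8% above. Cluster 3, led by Ero1l, Trib3 and Asns, held 1849 CPM in SHP099 and 2157 CPM in control, with 14 of 30 below and none above, where 18.2% of all lay below and 15% above. Cluster 2, led by Ogn and Mme, held 1042 CPM in SHP099 and 1168 CPM in control, and cluster 12, led by H19 and Ptn, held 1285 CPM in SHP099 and 1393 CPM in control. Cluster 12 made up 22.4% of the Xist-negative cells in SHP099 and 15.1% in control. The ratio of mitosis-high shares was 0.754 (0.615 to 0.921) in cluster 0, 0.662 (0.497 to 0.880) in cluster 2 and 0.730 (0.544 to 0.975) in cluster 3. In cluster 12 it was 0.979 (0.769 to 1.25), and in cluster 11, with 35 of 593 cells in SHP099 and 5 of 264 in control, 3.12 (1.22 to 10.2). The summed log2 ratio was thus positive in 3 of 7 clusters and negative in 4. Genes that lead these clusters also differ between the libraries, so the cluster sizes are a description only. With the 7 clusters weighted alike the summed log2 ratio was -0.03 and the median over genes 0.04, and the sum was -0.06 where each cell took its class from its own markers. Haemoglobin transcripts stood at 112 CPM in SHP099 and 30.8 CPM in control Xist-negative cells, and their part was not tested.

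**Figure D5:**
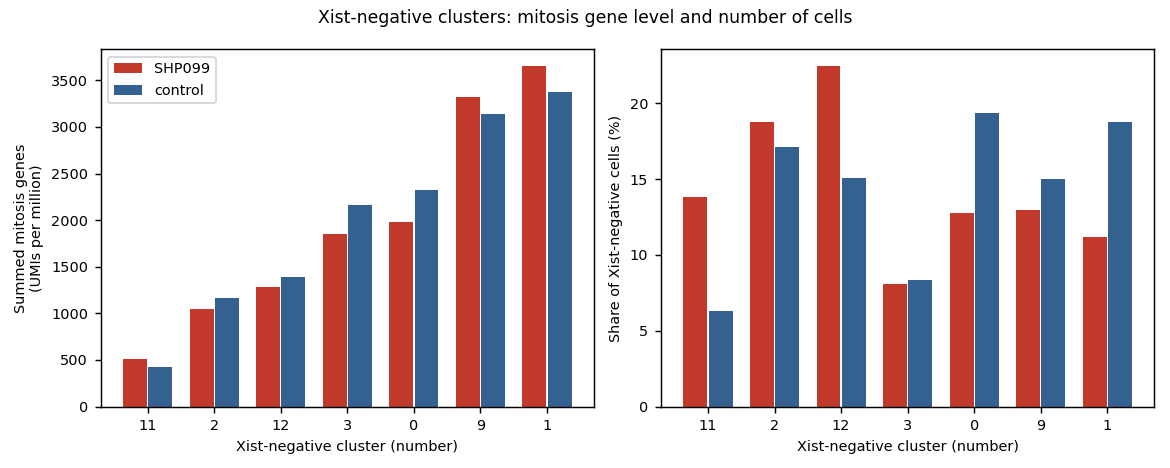
Summed level of the 32 genes in CPM, and share of all Xist-negative cells in percent, for each of the 7 Xist-negative clusters in SHP099 (red) and control (blue). Cluster 1 holds 3650 CPM in SHP099 and 3372 CPM in control and makes up 11.2% and 18.8% of these cells, and cluster 11 holds 514 and 420 CPM and makes up 13.8% and 6.31%.

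In the small classes a few cells carried most of the mitosis UMIs. NK cells, 53 in SHP099 and 99 in control, held 1785 and 1317 CPM, and 5 cells carried 63.3% of these UMIs in SHP099 and 53.4% in control. Dendritic cells, 80 in SHP099 and 88 in control, held 1405 and 676 CPM. Fibroblasts, 50 in SHP099 and 81 in control, held 277 and 803 CPM. Endothelial cells, 46 in SHP099 and 30 in control, held 798 and 2031 CPM, and 2 cells carried 50% of those UMIs in control. With cells drawn down to 2000 UMIs the intervals of the share ratios of all 4 classes span 1. Mitosis-high were 4 of 39 endothelial cells in SHP099 and 3 of 28 in control, 1 of 45 fibroblasts in SHP099 and 4 of 66 in control, 5 of 77 dendritic cells in SHP099 and 2 of 75 in control, and 3 of 36 NK cells in SHP099 and 4 of 71 in control. At full depth the shares lay further apart in 2 of these classes, with 11 of 80 dendritic cells, 13.8%, in SHP099 and 3 of 88, 3.41%, in control, and 5 of 46 endothelial cells, 10.9%, in SHP099 and 10 of 30, 33.3%, in control. Median depths were 4618 UMIs in SHP099 and 3778 in control for dendritic cells, and 6321 and 8105.5 for endothelial cells. Fibroblasts were at 12% in SHP099 and 14.8% in control, and NK cells at 15.1% and 10.1%.

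Other genes of the cell cycle were read from lists that hold none of the 32. In phagocytes 21 of 26 measured genes of a list of 45 other mitosis genes were at least 1.5-fold higher in SHP099, where 4.28% of all genes were, and none was lower, where 1.87% were. Their median log2 ratio was 1.12. Knl1, the kinetochore scaffold, was at 13.3 CPM in SHP099 and 2.59 CPM in control, and Pbk, a mitotic kinase, at 23.5 and 6.21 CPM. Espl1, the protease separase, was at 10.4 and 9.05 CPM. DNA replication genes differed less, with 15 of 31 at least 1.5-fold higher, against the same 4.28% of all genes, and a median of 0.58. Pclaf, a partner of the PCNA clamp, was at 183 CPM in SHP099 and 74.4 CPM in control, while Cdt1, which licenses replication origins, was at 18.2 and 19.9 CPM.

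The lists of regulators had smaller medians in phagocytes, 0.29 for transcription factors, 0.34 for entry into the cycle and 0.45 for inhibitors, against 0.05 over all genes. Their called genes are few, and 4.28% of all genes were at least 1.5-fold higher. Of the transcription factors of late cell cycle genes 1 of 9 measured was at least 1.5-fold higher in SHP099 phagocytes, Nfyb, a subunit of NF-Y, at 20.02 CPM in SHP099 and 12.5 CPM in control. Of the genes of entry into the cycle 2 of 11 were, Ccne2 and Ccnd2. Ccnd2, a D-type cyclin, was at 193 CPM in SHP099 and 124 CPM in control. Of the inhibitors of the cycle 2 of 7 were, Cdkn2c, at 31.0 CPM in SHP099 and 16.5 CPM in control, and the antiproliferative gene Btg2, at 280.0 and 169 CPM.

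In Xist-negative cells none of these lists held a gene 1.5-fold higher or lower. The medians were -0.19 over 40 other mitosis genes, -0.23 over 34 DNA replication genes and 0.23 over 7 inhibitors. Over 11 transcription factors of late cell cycle genes the median was -0.09. Foxm1, which drives late cell cycle genes, was at 11.7 CPM in SHP099 and 16.2 CPM in control, and Mybl2, of the same program, at 13.02 and 17.2 CPM. Nfya, a subunit of NF-Y, went the other way, at 11.2 CPM in SHP099 and 8.15 CPM in control, a log2 ratio of 0.44 (0.33 to 0.59). Tk1, a thymidine kinase, was at 41.9 CPM in SHP099 and 62.7 CPM in control, and the inhibitor Btg2 at 117 and 78.2 CPM. The inhibitors Cdkn2d, at 34.3 CPM in SHP099 and 43.9 CPM in control, and Cdkn1a, at 74.2 and 82.6 CPM, lay on the lower side. In T cells 7 of 36 other mitosis genes were at least 1.5-fold higher, 19.4%, where 11.4% of all genes were, and 2 were lower, where 6.95% of all were. Their median was 0.23. Of 34 DNA replication genes in T cells 2 were at least 1.5-fold higher, 5.88%, under the 11.4% of all genes. None of the 34 was 1.5-fold lower, and their median was 0.30.

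The genes whose level over cells was most like the summed 32 were found without regard to the lists. Over 8479 Xist-negative cells, which share library and depth, Pearson's r was highest for Cdca8, Pclaf and Cks1b, each at 0.74, and for Stmn1 and Cdca3, each at 0.73. Over 5112 phagocytes it was highest for Pclaf, at 0.54, Stmn1, at 0.51, and Cdca3, at 0.44. Pclaf, Stmn1, Cdca3, Cks1b, Cdca8, Prc1 and Smc2 were among the 10 most alike in both classes.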

How the data were processed

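The authors deposited filtered matrices of UMI counts, 1 per library, which the submitters' processing notes credit to Cell Ranger and the GRCm38 (mm10) build. Per the file headers the software version was 3.1.0. No annotation is named. The counts were used as deposited.

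Barcodes with under 200 genes were dropped, 103 in SHP099 and 99 in control, and then those over 20% mitochondrial UMIs, 260 and 194. Scrublet called 198 doublets in SHP099, 2.51%, and 264 in control, 3.32%, below the expected 6.32% and 6.36%, and these were removed. Clustering used scanpy 1.11.5 with 2000 variable genes without the 32 genes, the cell cycle lists, histone, tubulin, mitochondrial, ribosomal, haemoglobin, immunoglobulin, Hmgb, Hmgn and Stmn1 genes, 30 components, 15 neighbours and Leiden resolution 1, on both libraries together without integration. Statistics used scipy 1.17.1 and numpy 2.4.6 under Python 3.11.15, tables pandas 2.3.3, graphs igraph 0.11.9 and scikit-learn 1.9.0, and plots matplotlib 3.10.9.

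A cluster was named for the marker list with the highest level, provided that 3 or more of those markers were detected in 10% of its cells at 2-fold the level elsewhere. A cluster whose median UMI count times 3 was still under that of its libraries, with none of those markers among its 10 leading genes, stayed unnamed. This left out cluster 6, with macrophage markers and haemoglobin genes in the lead. Clusters with Xist under 0.02 of the median form the Xist-negative class, a limit set after the data were seen. Phagocytes were clustered again alone, but 9 of the 14 clusters stayed unnamed, so the subsets are clusters of the first round, chosen after this was seen. Only the classical monocytes come from the second round.

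CPM came from UMIs summed over the cells of a class in a library and scaled to their total, and its interval is exact Poisson. Log2 ratios are SHP099 over control with a prior of 0.5 CPM, and their exact conditional binomial intervals leave the prior out. Shares have exact Clopper-Pearson intervals. A count of 0 is given the limit of 3 counts. A gene was called at 1.5-fold or more, at 10 CPM or more in either library. Levels are not scaled for gene length, so they are compared between libraries and classes, not between genes. No test was run. The log2 ratios and their intervals were tested on simulated independent counts, and so was the drawing down of UMIs. The clustering, the naming of classes and the mitosis-high call were not.

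All 32 genes could be named, and of each other list the 2 highest and 2 lowest in a compared class, plus the 10 genes most like the summed genes. The 32 genes, the lists and the comparisons were chosen with earlier results of these data known. Promoters are from RefSeq, GRCm38.p6, and gene positions from GENCODE M21.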

Additional observations from a re-analysis of the deposited data

Results flagged for a closer look

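The phagocytes and the Xist-negative cells differed in the direction of the ratio. The summed log2 ratio of SHP099 over control was 0.97 in phagocytes and -0.22 in Xist-negative cells, a difference of 1.18. All 27 measured genes of the phagocytes were higher in SHP099, where 58.9% of all genes at that level were. In the Xist-negative cells 29 of the 30 measured genes were lower in SHP099, where 44.4% of all were. The levels of the 2 classes lay closer in SHP099, at 1496 CPM in phagocytes and 2013 CPM in Xist-negative cells, than in control, at 765 CPM in phagocytes and 2338 CPM in Xist-negative cells. With 1 library per group the difference was not tested.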

How the results depend on the processing

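No paired analysis was possible because each group had 1 library, and leaving out a replicate was not possible for the same reason. Values here are log2 ratios of SHP099 over control. Of the alternatives, 58 values were labelled the same as the main value and 21 moved. The 58 include medians over genes and counts of called genes, for which no counting interval is given. In phagocytes, for example, 25 genes were called higher, and 30 with no filter on level. None of the sums and shares changed sign.

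The sum in Xist-negative cells was -0.22, and -0.30 with each cell counted alike, -0.034 with clusters weighted alike and -0.057 with cells assigned by their own markers. Their share of mitosis-high cells was -0.43, and -0.15 with clusters weighted alike and -0.27 at full depth. Their median over genes was -0.14, and -0.25 with each cell counted alike, but 0.038 with clusters weighted alike, which changed its sign.

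The sum in phagocytes was 0.97, and 1.02 at resolution 2, 0.77 with each cell counted alike, 0.88 with clusters weighted alike, 0.59 with own markers and 1.19 without Hmgb2 and Cks2. Their share was 1.49, and 0.93 at 2 or more UMIs and 0.84 at full depth.

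The sum in T cells was 0.53, and 0.29 with called doublets kept, 0.36 with each cell counted alike, 0.69 with clusters weighted alike, 0.32 with own markers and 0.45 with abundant genes left out of the total. Their share was 0.67, and 0.12 at full depth. The causes were not tested.

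Of 7 alternatives added after the data were seen, leaving out cells with tumour-marker UMIs gave sums of 0.95 in phagocytes and 0.55 in T cells and shares of 1.46 and 0.67. Leaving out phagocyte subclusters with fibroblast or T cell markers gave a sum of 0.98. Adding unnamed cluster 6 to the phagocytes gave a sum of 0.87 and a share of 1.42. Depth limits genes with few counts, such as Ccnb1 with 24 UMIs in SHP099 and 8 in control T cells, and 9 and 11 UMIs in monocytes.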
